A study of Mus musculus with 12 samples.

Results

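The CD300 receptor family of mouse bone marrow-derived macrophages (BMDMs) was followed in 6 of its genes, Cd300a, Cd300lf, Cd300lb, Cd300ld, Cd300c2 and Cd300e, out of 43453 genes in the deposited count table. The table lists 12 CD300 genes in all, and the other 6 are given for comparison. The family was chosen by the level of Cd300lf, which had differed strongly between groups in an earlier look at these libraries, so the values of Cd300lf are a description without a test. All BMDMs were from C57BL/6 mice whose tlr4 alleles are flanked by loxP sites (tlr4f/f) and had been cultured with M-CSF (50 ng/mL, 7 days). The tlr4f/f-lysM-cre mice also carry Cre under the lysozyme M promoter, which removes tlr4 from their myeloid cells. BMDMs of each genotype were left without LPS (LPS-) or received LPS at 1 µg/mL during 6 h (LPS+), and 3 libraries were sequenced for each of the 4 groups. The ages of the mice that gave the marrow are not given in the sources used here, nor is it stated whether the 3 libraries of a group came from separate mice or cultures, so p-values measure the spread between these libraries, which may be technical.

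The column headings carried a doubt that touches every comparison. Tlr4, the targeted gene, had 4486, 9136 and 6449 counts under the heading LPS- tlr4f/f and 4367, 3041 and 3739 under LPS- tlr4f/f-lysM-cre. The counts were lower under LPS+ tlr4f/f (1484, 1086 and 1412) and under LPS+ tlr4f/f-lysM-cre (1191, 891 and 1117). Lyz2, the locus of lysM-cre, had at least 221787 counts in each LPS- library and at most 3272 in each LPS+ library. Il1b, a cytokine gene that LPS induces, had at least 52432 counts in each library headed tlr4f/f-lysM-cre and at most 405 in each library headed tlr4f/f. The 3 genes therefore go against 2 headings, LPS- tlr4f/f-lysM-cre as well as LPS+ tlr4f/f, and would follow genotype and LPS if these headings were exchanged. Groups are named below as headed. Each comparison is given in both readings where it is first described, and later passages keep the headed names. The numbers are the same in both, because an exchange alters only what a pair of groups stands for.

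CD300 proteins are single immunoglobulin-domain receptors of myeloid cells that bind lipids such as phosphatidylserine and ceramide. They form pairs of opposing sign: CD300a and CD300lf carry inhibitory tyrosine motifs that recruit phosphatases, whereas CD300lb, CD300ld and CD300c2 signal through the adaptors TYROBP or FCER1G and the kinase SYK. CD300e is counted among the activating receptors, and CD300lf is also known to associate with the interleukin-4 receptor. All 6 genes lie in a cluster on chromosome 11 between 114889152 and 115135372 (GRCm38, RefSeq gene positions), together with 5 of the other 6 CD300 genes, whereas Cd300lg lies apart at 102041511 to 102055617. Cd300a (chr11:114889152-114901946) is on the plus strand. Cd300lb (chr11:114922779-114934371), Cd300ld (chr11:114982443-114989886), Cd300c2 (chr11:114996721-115004261), Cd300e (chr11:115051917-115066676) and Cd300lf (chr11:115116214-115135372) are on the minus strand.

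The promoters of 4 members are shown because these genes had the lowest or highest ratios between groups: Cd300a and Cd300lb, which were lower in the same comparisons, Cd300lf, and Cd300e, which went the other way. Each runs from 250 bases before to 20 bases after the annotated start on the strand of the gene (RefSeq, GRCm38.p6), and capitals mark the letters of the motifs searched. For Cd300a, Cd300lf and Cd300e this start lies inside the extent of the gene given above, which also covers longer transcripts. The stretches are chr11:114889791-114890060 on the plus strand, and chr11:114934352-114934621, chr11:115133973-115134242 and chr11:115062020-115062289 on the minus strand.
Cd300a: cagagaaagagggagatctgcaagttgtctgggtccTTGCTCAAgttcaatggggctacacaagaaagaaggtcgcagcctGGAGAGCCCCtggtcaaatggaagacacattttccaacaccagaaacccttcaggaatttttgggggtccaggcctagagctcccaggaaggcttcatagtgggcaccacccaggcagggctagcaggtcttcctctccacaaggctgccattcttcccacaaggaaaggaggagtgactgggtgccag
Cd300lb: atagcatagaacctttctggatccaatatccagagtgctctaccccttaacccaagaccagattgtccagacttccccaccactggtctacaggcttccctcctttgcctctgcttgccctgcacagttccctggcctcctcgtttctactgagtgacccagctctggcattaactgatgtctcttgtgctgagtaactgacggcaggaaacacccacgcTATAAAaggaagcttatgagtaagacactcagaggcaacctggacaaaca
Cd300lf: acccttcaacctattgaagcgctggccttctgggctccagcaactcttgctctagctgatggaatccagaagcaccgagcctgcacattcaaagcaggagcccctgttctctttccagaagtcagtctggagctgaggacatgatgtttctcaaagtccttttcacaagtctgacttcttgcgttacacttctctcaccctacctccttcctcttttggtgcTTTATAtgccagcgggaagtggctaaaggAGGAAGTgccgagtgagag
Cd300e: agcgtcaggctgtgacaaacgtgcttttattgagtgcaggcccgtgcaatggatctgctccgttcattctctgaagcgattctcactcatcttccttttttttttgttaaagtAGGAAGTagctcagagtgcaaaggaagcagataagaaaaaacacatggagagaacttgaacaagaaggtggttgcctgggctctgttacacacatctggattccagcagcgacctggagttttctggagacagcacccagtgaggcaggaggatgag
Both strands were searched for AGGAAGT (PU.1 and other ETS factors), TATAAA (bound by TBP), TTGCNNAA (C/EBP), TGANTCA (AP-1), and for the interferon response element and the NF-kB motif by name. AGGAAGT occurred in 4 of the 6 promoters and in 8.43% of 32851 mouse promoters of the same length. It began 137 bases before the start of Cd300e, at base 2 of Cd300lf, 26 bases before the start of Cd300c2, and 142 and 38 bases before the start of Cd300ld, whose first match overlaps an NF-kB match. TATAAA, found in 12.87% of promoters, began 30 bases before the start of Cd300lb. In Cd300lf it lay on the strand opposite to the gene, as TTTATA beginning 28 bases before the start. TTGCNNAA (10.13% of promoters) and a second NF-kB match (7.69%) were in Cd300a, and no member held TGANTCA (7.23%) or the interferon response element (3.2%). A match describes letters only.

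Over genes, the 12 libraries held between 33577436 and 56445986 counts with a median of 45331237. Levels are given as CPM (counts scaled to library size, here after TMM scaling), as mean ± SD of 3 libraries. All 7 macrophage markers had more than 10 counts in every library, and their summed level lay between 4106 and 9286 CPM. Each member had reads in every library and passed the filter on low counts in every comparison. A CD300 member is called changed when it differed more than 2-fold and its adjusted p was below 0.01, the limits the study used. The test was the quasi-likelihood test of edgeR, and p-values were adjusted over all genes (Benjamini-Hochberg). Libraries of a group differed less in the groups headed LPS+: the chi-square per degree of freedom over genes, between pairs of libraries of a group, lay between 9.52 and 21.1 in the LPS+ groups and between 185 and 375 in the LPS- groups. In bulk RNA, fewer cells of a type and less RNA per cell cannot be told apart.

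Cd300a, an inhibitory receptor for phosphatidylserine and phosphatidylethanolamine, measured 82.9, 65.2 and 167 CPM in LPS- tlr4f/f (105 ± 54.2) and 135, 145 and 177 CPM in LPS+ tlr4f/f (152 ± 22.4). It measured 6.42, 10.9 and 9.70 CPM in LPS- tlr4f/f-lysM-cre (8.998 ± 2.31) and 25.1, 21.3 and 30.8 CPM in LPS+ tlr4f/f-lysM-cre (25.7 ± 4.79). Both groups headed tlr4f/f-lysM-cre were thus below both groups headed tlr4f/f in every library, and LPS- tlr4f/f-lysM-cre was the lowest. The ranges of the groups headed tlr4f/f overlapped only through library 3 of LPS- tlr4f/f.

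Cd300lf, an inhibitory receptor that also binds lipids, measured 10.5, 12.2 and 3.90 CPM in LPS- tlr4f/f (8.86 ± 4.38), 4.83, 4.05 and 7.81 CPM in LPS- tlr4f/f-lysM-cre (5.56 ± 1.98) and 3.01, 3.94 and 4.01 CPM in LPS+ tlr4f/f (3.65 ± 0.559). In LPS+ tlr4f/f-lysM-cre it measured 0.391, 0.247 and 0.376 CPM (0.338 ± 0.0794), from only 17, 9 and 17 counts. This group lay below the other 3 in every library, the first 2 overlapped, and the libraries of LPS+ tlr4f/f ended just under those of LPS- tlr4f/f-lysM-cre. Cd300lf has 8 transcript rows in the table, and over them the log2 ratio of the means of LPS+ tlr4f/f-lysM-cre to LPS+ tlr4f/f ran from -3.56 to -3.42. Rab37, which overlaps it by 17779 bases on the opposite strand, had 0 to 26 counts per library. Whether strand was used in counting is not stated, so it is not known whether reads of overlapping exons were assigned by strand.

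Cd300lb, an activating receptor that signals through TYROBP, measured 257, 304 and 256 CPM in LPS- tlr4f/f (272 ± 27.9) and 361, 366 and 379 CPM in LPS+ tlr4f/f (369 ± 9.21). The level was 24.4, 44.8 and 33.3 CPM in LPS- tlr4f/f-lysM-cre (34.2 ± 10.2) and 188, 161 and 197 CPM in LPS+ tlr4f/f-lysM-cre (182 ± 18.7). The 4 groups did not overlap, and their order from the top was LPS+ tlr4f/f, LPS- tlr4f/f, then LPS+ tlr4f/f-lysM-cre, with LPS- tlr4f/f-lysM-cre lowest.

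Cd300ld, which pairs with FCER1G, measured 196, 212 and 86.9 CPM in LPS- tlr4f/f (165 ± 68.0), 110, 129 and 180 CPM in LPS- tlr4f/f-lysM-cre (139 ± 36.4), 216, 255 and 282 CPM in LPS+ tlr4f/f (251 ± 33.2) and 217, 209 and 228 CPM in LPS+ tlr4f/f-lysM-cre (218 ± 9.75). Neighbours in the order of the means overlapped throughout. Cd300c2, which can pair with either adaptor, measured 135, 166 and 243 CPM in LPS- tlr4f/f (181 ± 55.7), 85.9, 116 and 126 CPM in LPS- tlr4f/f-lysM-cre (109 ± 20.7), 171, 193 and 190 CPM in LPS+ tlr4f/f (185 ± 11.8) and 121, 128 and 133 CPM in LPS+ tlr4f/f-lysM-cre (127 ± 6.28). The groups headed tlr4f/f overlapped each other, as did the groups headed tlr4f/f-lysM-cre, and the first pair lay above the second in every library.

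Cd300e, an activating receptor of monocytes and macrophages, ran the other way. It measured 37.5, 39.2 and 36.8 CPM in LPS+ tlr4f/f-lysM-cre (37.8 ± 1.27) and 26.1, 14.6 and 14.7 CPM in LPS- tlr4f/f-lysM-cre (18.5 ± 6.63). It measured 5.83, 0.749 and 4.44 CPM in LPS- tlr4f/f (3.67 ± 2.63) and 2.90, 2.11 and 4.29 CPM in LPS+ tlr4f/f (3.10 ± 1.10). These last groups overlapped, and every library headed tlr4f/f-lysM-cre was above them. Library 3 of LPS- tlr4f/f stood apart from libraries 1 and 2 in Cd300a, Cd300lf and Cd300ld. Where its values made ranges overlap, the comparisons below say so.

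**Figure D1:**
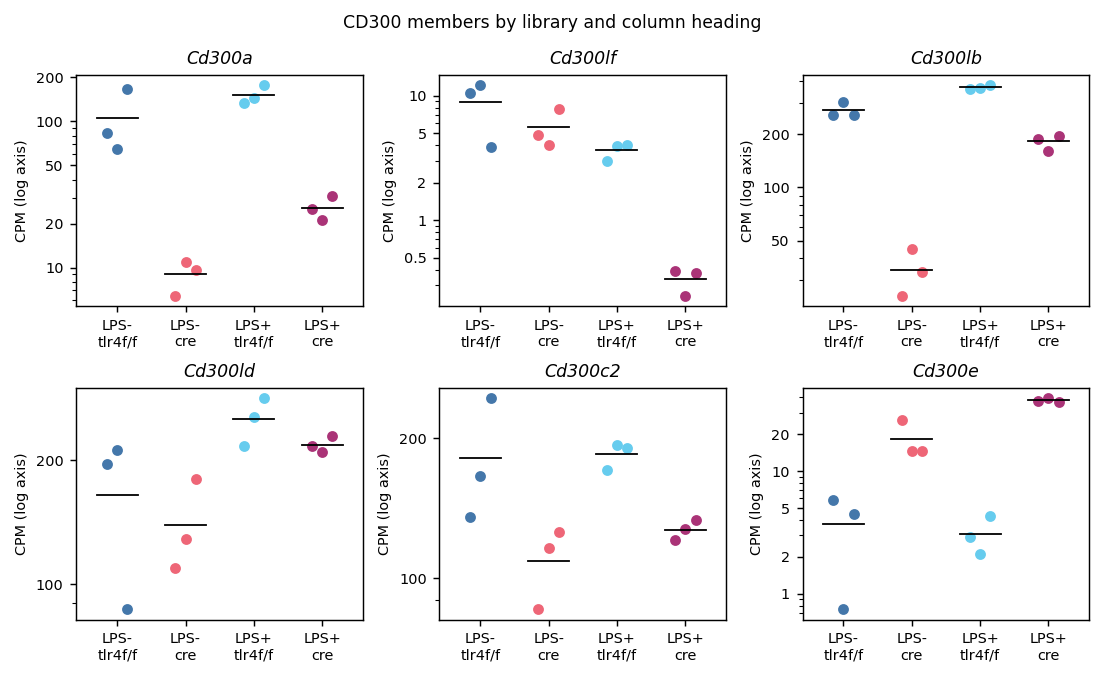
CPM of the 6 CD300 members (log axis, a separate scale for each gene) in the 3 libraries of each group as headed, where cre stands for tlr4f/f-lysM-cre, points are libraries and lines are group means. Cd300a and Cd300lb sit lowest in LPS- tlr4f/f-lysM-cre, Cd300lf in LPS+ tlr4f/f-lysM-cre (0.247 to 0.391 CPM), and Cd300e is highest in LPS+ tlr4f/f-lysM-cre (36.8 to 39.2 CPM).

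Between genes, levels were compared per kb of the transcript counted. Cd300c2 held the largest mean share of the summed CPM per kb of the 6 members in every group, from 37.8% in LPS+ tlr4f/f to 53.9% in LPS- tlr4f/f-lysM-cre. Cd300lb held 27.2% in LPS- tlr4f/f and 29.9% in LPS+ tlr4f/f, but 6.69% in LPS- tlr4f/f-lysM-cre and 22.0% in LPS+ tlr4f/f-lysM-cre. The share of Cd300ld was 19.8% and 23.9% in LPS- and LPS+ tlr4f/f, and 31.9% and 31.1% in LPS- and LPS+ tlr4f/f-lysM-cre. The summed level was 349 ± 32.9 and 429 ± 30.5 CPM per kb in LPS- and LPS+ tlr4f/f, and 177 ± 31.9 and 287 ± 13.6 CPM per kb in LPS- and LPS+ tlr4f/f-lysM-cre.

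The inhibitory members made up a small part of this sum at the transcript lengths used. Cd300a was divided by 4642 bases, while a row of 2223 bases held 90.5% as many counts. With that shorter row, the level of Cd300a per kb, and so its share, would be higher and the ratio of Cd300e to it lower. Cd300a and Cd300lf together held 5.34% to 9.93% in LPS- tlr4f/f and 7.54% to 8.74% in LPS+ tlr4f/f, against 2.22% to 2.56% in LPS- tlr4f/f-lysM-cre and 1.70% to 2.25% in LPS+ tlr4f/f-lysM-cre. The ratio of Cd300e to Cd300a per kb lay between 0.0244 and 0.149 in LPS- tlr4f/f and between 0.0310 and 0.0512 in LPS+ tlr4f/f. It lay between 2.84 and 8.63 in LPS- tlr4f/f-lysM-cre and between 2.53 and 3.90 in LPS+ tlr4f/f-lysM-cre. Per length, Cd300a was therefore above Cd300e in each of the 6 libraries headed tlr4f/f and below it in each of the 6 headed tlr4f/f-lysM-cre.

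**Figure D2:**
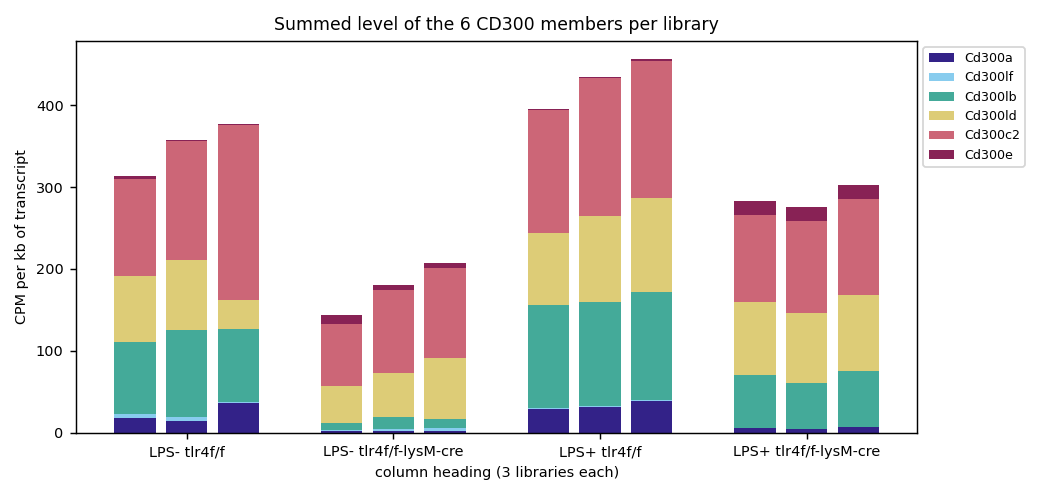
Summed CPM per kb of transcript of the 6 CD300 members, stacked by gene, in each of the 12 libraries under the column headings. The sum is lowest in LPS- tlr4f/f-lysM-cre (177 ± 31.9), where the band of Cd300lb narrows to a mean of 6.69% of the sum.

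The comparison of LPS+ tlr4f/f-lysM-cre with LPS+ tlr4f/f asks, as headed, what loss of myeloid tlr4 does under LPS, and with the headings exchanged, what LPS does in tlr4f/f-lysM-cre BMDMs. Cd300a and Cd300lb were lower and Cd300e was higher in LPS+ tlr4f/f-lysM-cre, so that 3 of the 5 members tested were called. Over all genes, 21.7% of 14552 were called in either direction, 10.8% higher and 10.9% lower. Cd300a was 5.86-fold lower (log2 fold change -2.55 ± 0.17 SE, adjusted p = 3.63e-05). Cd300e was 11.996-fold higher (3.58 ± 0.21 SE, adjusted p = 3.43e-06). Cd300lb was 2.01-fold lower (-1.01 ± 0.07 SE, adjusted p = 7.78e-08), only just past the fold required, and its log2 fold change was -0.93 without library 2 of LPS+ tlr4f/f-lysM-cre, which ended the call.

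Cd300c2 differed by -0.53 ± 0.06 (log2, SE) with an adjusted p of 8.94e-06, but not by 2-fold, and Cd300ld by -0.19 ± 0.09 with an adjusted p of 0.0754. Cd300lf, described without a test, was 10.5-fold lower (-3.40 ± 0.26 SE). Of the 5 members tested, which leave out Cd300lf, 4 had CPM ranges that did not overlap between these groups, with Cd300ld the exception, and so did 67.5% of all genes tested. The median log2 fold change was -0.53 over these 5 members and -0.02 over all genes tested.

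The comparison of LPS- tlr4f/f-lysM-cre with LPS- tlr4f/f asks what loss of myeloid tlr4 does without LPS, or, with the headings exchanged, what LPS does in tlr4f/f BMDMs. Cd300a was 11.7-fold lower (log2 fold change -3.55 ± 0.42 SE, adjusted p = 0.00188) and Cd300lb 8.03-fold lower (-3.01 ± 0.25 SE, adjusted p = 0.000673). These 2 of the 5 members tested were called, against 17.1% of 14649 genes, of which 9.25% were higher and 7.81% lower. Cd300e differed by 2.33 ± 0.72 (log2, SE) with an adjusted p of 0.0445, Cd300c2 by -0.74 ± 0.26 with 0.0659 and Cd300ld by -0.25 ± 0.37 with 0.625, and none of these was called. For Cd300lf the difference was -0.68 ± 0.48, with ranges that overlapped through library 3 of LPS- tlr4f/f. Of the 5 members tested, 4 did not overlap (54.1% of all genes), with Cd300ld the exception, again through that library. The median log2 fold change of the 5 was -0.74, against -0.08 over all genes tested. With 1 library left out, Cd300lf ran from -1.05 to -0.38 and Cd300ld from -0.57 to -0.03.

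Leaving out library 3 of LPS- tlr4f/f kept both calls, with -3.07 for Cd300a and -3.06 for Cd300lb, whereas without library 3 of LPS- tlr4f/f-lysM-cre only Cd300lb was called (adjusted p of Cd300a 0.0108). Among markers of other cells, the summed levels of neutrophil and of dendritic cell markers did not overlap between the LPS- groups. Those of fibroblast and stroma markers overlapped. The sums of mast cell and basophil, B cell, T cell and erythroid markers overlapped as well, and were at most 3.69 CPM in any LPS- library. The summed level of 4 fibroblast and stroma markers lay between 5.19 and 597 CPM in LPS- tlr4f/f and between 114 and 1159 CPM in LPS- tlr4f/f-lysM-cre, against at most 28.8 CPM in the LPS+ groups. That of 8 neutrophil markers lay between 0.656 and 12.9 CPM in LPS- tlr4f/f, between 13.3 and 170 CPM in LPS- tlr4f/f-lysM-cre and between 4.76 and 7.26 CPM in the LPS+ groups. Ly6g was at 0 in every group but LPS- tlr4f/f-lysM-cre, where its mean was 0.0104 CPM. Most of the neutrophil sum there was S100a8 (mean 52.4 CPM, against 4.10 in LPS- tlr4f/f). S100a9 (12.5 against 1.43), Ltf (2.43 against 0.297) and Camp (1.89 against 0.105) were also higher. Mpo (0.740 against 1.23) and Cxcr2 (0.00895 against 0.0578) were lower, and Elane was similar (0.320 against 0.306). The 4 dendritic cell markers summed to at most 0.652 CPM in the groups headed tlr4f/f and to 2.55 to 6.13 CPM in those headed tlr4f/f-lysM-cre. Most of the latter sum was Xcr1, with means of 4.003 and 2.45 CPM in LPS- and LPS+ tlr4f/f-lysM-cre. Its means were 0.145 and 0.206 CPM in LPS- and LPS+ tlr4f/f. Zbtb46 was also higher (0.434 and 0.358, against 0.123 and 0.211). Flt3 and Siglech had means of at most 0.033 CPM in every group. The part of these markers of other cells in the CD300 differences was not tested.

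**Figure D3:**
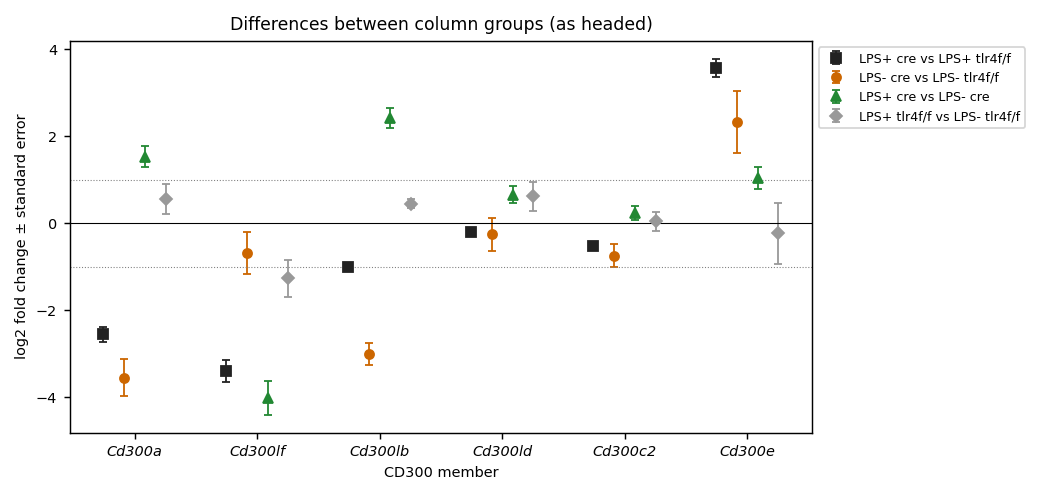
Log2 fold change (points) and its standard error (bars) of each CD300 member in 4 comparisons of groups as headed, where cre stands for tlr4f/f-lysM-cre and dotted lines mark 2-fold. Cd300a and Cd300lb lie below 0 and Cd300e above 0 in both comparisons of tlr4f/f-lysM-cre with tlr4f/f, while Cd300ld and Cd300c2 lie between the dotted lines in all 4.

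LPS+ tlr4f/f-lysM-cre against LPS- tlr4f/f-lysM-cre is the LPS response of tlr4f/f-lysM-cre BMDMs as headed, and the difference between genotypes under LPS if the headings are exchanged. Cd300lb was 5.39-fold higher (log2 fold change 2.43 ± 0.22 SE, adjusted p = 0.00156) and Cd300a 2.89-fold higher (1.53 ± 0.24 SE, adjusted p = 0.00681) in LPS+ tlr4f/f-lysM-cre. Over all genes, 6.08% of 14245 were called, 2.42% higher and 3.66% lower. Cd300e (1.04 ± 0.25, adjusted p = 0.0233), Cd300ld (0.66 ± 0.20, adjusted p = 0.0501) and Cd300c2 (0.23 ± 0.16, adjusted p = 0.312) did not pass. Cd300lf was 16.1-fold lower in LPS+ tlr4f/f-lysM-cre (-4.01 ± 0.39 SE, not tested). Ranges did not overlap for 4 of the 5 members tested, Cd300c2 being the exception, and for 48% of all genes. Leaving out any 1 library of LPS+ tlr4f/f-lysM-cre ended both calls, with adjusted p between 0.0158 and 0.0161 for Cd300lb and between 0.0285 and 0.0389 for Cd300a. Over all genes, these same 3 fits called 4 to 15 genes in place of 866. Without library 3 of LPS- tlr4f/f-lysM-cre only Cd300lb was called (adjusted p of Cd300a 0.0130), and without library 1 Cd300e was called as well (adjusted p = 0.00176).

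LPS+ tlr4f/f against LPS- tlr4f/f is the LPS response of tlr4f/f BMDMs as headed, and the difference between genotypes without LPS if the headings are exchanged. No member was called here, and neither was any gene (0% of 14713 by edgeR), although 3627 genes had an unadjusted p below 0.05 and DESeq2 called 466 genes and no member. The log2 fold changes were 0.56 ± 0.35 (SE) for Cd300a (adjusted p = 0.370), 0.45 ± 0.11 for Cd300lb (adjusted p = 0.0823) and 0.62 ± 0.34 for Cd300ld (adjusted p = 0.312). They were 0.04 ± 0.21 for Cd300c2 (adjusted p = 0.919) and -0.22 ± 0.70 for Cd300e (adjusted p = 0.872). With 1 library left out, Cd300a ran from 0.31 to 1.05 (adjusted p between 0.0200 and 0.641) and Cd300ld from 0.31 to 0.84. Cd300lf differed by -1.27 ± 0.43, with ranges that overlapped through library 3 of LPS- tlr4f/f, and by -1.63 without that library. Of the 5 members tested, Cd300lb and Cd300ld did not overlap, as was true of 35.3% of all genes. The overlaps of Cd300a and Cd300c2 came through library 3 of LPS- tlr4f/f.

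The interaction asks whether the difference between tlr4f/f-lysM-cre and tlr4f/f under LPS equals that without LPS, and its value does not depend on the reading. Cd300lb was the member called, at 1.97 ± 0.26 (log2, SE) with an adjusted p of 0.00423. As headed, it was 8.03-fold lower in LPS- tlr4f/f-lysM-cre than in LPS- tlr4f/f and 2.01-fold lower between the LPS+ groups. With the headings exchanged, the difference between genotypes runs the other way: Cd300lb was 5.39-fold higher in tlr4f/f-lysM-cre with LPS, and 1.37-fold higher without LPS (log2 fold change 0.45, not called). Over all genes, 0.994% of 15792 were called. Leaving out any 1 library of either LPS+ group ended this call, with adjusted p between 0.0124 and 0.0211, and left 10 to 21 calls over all genes in place of 157. The interaction was 0.98 ± 0.46 for Cd300a (adjusted p = 0.227), 1.27 ± 0.78 for Cd300e (adjusted p = 0.368), 0.20 ± 0.28 for Cd300c2 (adjusted p = 0.732) and 0.04 ± 0.41 for Cd300ld (adjusted p = 0.970). Cd300lf, not tested, had -2.74 ± 0.58.

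With the headings exchanged, the comparisons of tlr4f/f-lysM-cre with tlr4f/f, here and in the lists below, set LPS against no LPS within a genotype. As headed, Cd300a and Cd300lb, at one end of the cluster, were lower in both comparisons of tlr4f/f-lysM-cre with tlr4f/f. Cd300ld and Cd300c2 next to them did not change by 2-fold, and Cd300e was higher in LPS+ tlr4f/f-lysM-cre than in LPS+ tlr4f/f. Cd300lf, at the other end and not tested, had log2 fold changes of -3.40 between the LPS+ groups and -0.68 between the LPS- groups, the latter with overlapping ranges. None of the other 6 CD300 genes was called in any comparison. Cd300ld3 measured 20.8 ± 7.12 CPM in LPS- tlr4f/f, 22.0 ± 7.06 in LPS- tlr4f/f-lysM-cre, 19.96 ± 2.06 in LPS+ tlr4f/f and 14.9 ± 1.41 in LPS+ tlr4f/f-lysM-cre. Its log2 fold change between the LPS+ groups was -0.41 ± 0.10 (SE, adjusted p = 0.00288). Cd300ld4 and Cd300ld5 lay below 6 CPM, Cd300ld2 and Cd300lg below 3 CPM, and Cd300c had at most 8 counts in a library and was filtered out. In all, 4 of the 5 tested had an adjusted p below 0.05 between the LPS+ groups, as did 61.4% of all genes. The values of Cd300ld3, Cd300ld4 and Cd300ld5 are uncertain, because 78.7% to 100% of the 150-base stretches of their transcripts also occur in another CD300 gene, whereas no such stretch of the 6 members does.

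**Figure D4:**
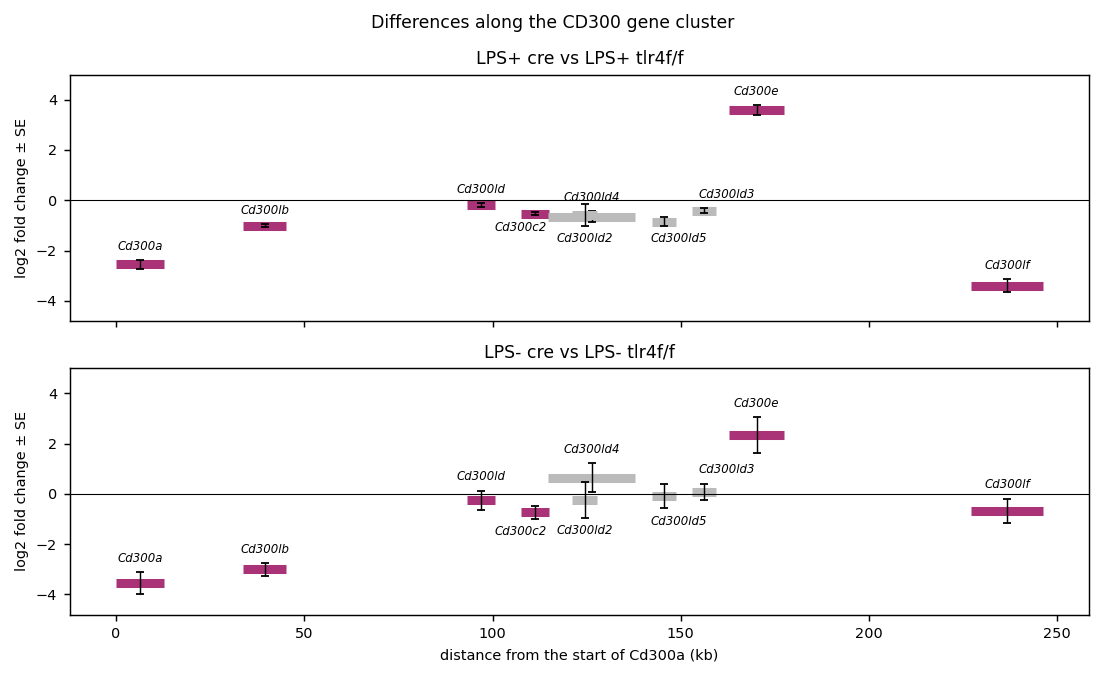
Log2 fold change (height of each bar, with its standard error) of the CD300 genes of the cluster that passed the filter on low counts. Bars are drawn over the extent of each gene in kb from the start of Cd300a. Groups are compared as headed, tlr4f/f-lysM-cre against tlr4f/f, between the LPS+ groups (top) and between the LPS- groups (bottom). The 6 members are purple and the other CD300 genes grey, and Cd300e lies above 0 in both panels, at 3.58 and 2.33.

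Of 9 adaptor and kinase genes of activating receptors, 3 were higher and none lower in LPS+ tlr4f/f-lysM-cre than in LPS+ tlr4f/f (10.8% and 10.9% of all genes), and their median log2 fold change was 0.50 (-0.02 over all genes). Syk, the kinase that binds phosphorylated adaptors, was higher by 2.43 ± 0.05 (SE, adjusted p = 4.36e-12), and Lyn, a Src-family kinase, by 1.85 ± 0.06 (adjusted p = 1.41e-10). In LPS- tlr4f/f-lysM-cre against LPS- tlr4f/f, 2 were higher and none lower (9.25% and 7.81% of all genes), with a median of 0.80 (-0.08 over all genes), Lyn at 2.47 ± 0.18 (adjusted p = 0.000605) and Syk at 2.44 ± 0.24 (adjusted p = 0.00100). The adaptors themselves were not called: Tyrobp measured between 377 and 544 CPM over all libraries, and Fcer1g between 514 and 1156 CPM. In the other 2 comparisons and the interaction, none of the 9 was called.

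Of 9 phosphatases and binding proteins of inhibitory receptors, Ptpn6, which encodes the phosphatase SHP-1, was called between the LPS+ groups (1.33 ± 0.05 SE higher in LPS+ tlr4f/f-lysM-cre, adjusted p = 2.61e-10). Inpp5d, which encodes the lipid phosphatase SHIP-1, was called between the LPS- groups (-2.05 ± 0.22 SE, adjusted p = 0.00132). These are 1 of 9 in each comparison, where 21.7% and 17.1% of all genes were called. The medians of the list were 0.34 and 0.0003 (-0.02 and -0.08 over all genes), and none was called in the other comparisons. Of 5 reported ligands and partners, Il4ra, which encodes the interleukin-4 receptor chain, was higher in LPS+ tlr4f/f-lysM-cre than in LPS+ tlr4f/f (2.20 ± 0.07 SE, adjusted p = 6.03e-11) and in LPS- tlr4f/f-lysM-cre than in LPS- tlr4f/f (2.59 ± 0.33 SE, adjusted p = 0.00212). It was lower in LPS+ tlr4f/f-lysM-cre than in LPS- tlr4f/f-lysM-cre (-1.38 ± 0.15 SE, adjusted p = 0.00275). Il4ra was the 1 gene called of 4, 3 and 4 tested in these comparisons, where 21.7%, 17.1% and 6.08% of all genes were called. Anxa5 and Mfge8 were tested and not called in any comparison. Havcr1 did not pass the filter in any comparison, and Timd4, which encodes a phosphatidylserine receptor, had at most 1.15 CPM.

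Of 17 other paired receptor genes of myeloid cells, 5 were higher and 1 lower in LPS+ tlr4f/f-lysM-cre than in LPS+ tlr4f/f (10.8% and 10.9% of all genes), with a median of 0.39 (-0.02 over all genes). Siglece, an inhibitory sialic acid receptor, was higher by 5.77 ± 0.20 (SE, adjusted p = 3.64e-09) and Pilra, the inhibitory receptor of the PILR pair, by 3.62 ± 0.08 (adjusted p = 2.52e-12). Pirb (1.61 ± 0.19, adjusted p = 0.00160) and Pira6 (1.17 ± 0.21, adjusted p = 0.00690) were higher in LPS- tlr4f/f-lysM-cre than in LPS- tlr4f/f, where 2 were called, both higher (9.25% of all genes). Sirpb1a (-3.56 ± 0.51, adjusted p = 0.00551) and Siglec1 (-2.68 ± 0.23, adjusted p = 0.00134) were lower in LPS+ tlr4f/f-lysM-cre than in LPS- tlr4f/f-lysM-cre, where again 2 were called, both lower (3.66% of all genes). Counts of Pirb, Pira6 and Sirpb1a are uncertain, since these genes have close paralogs.

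**Figure D5:**
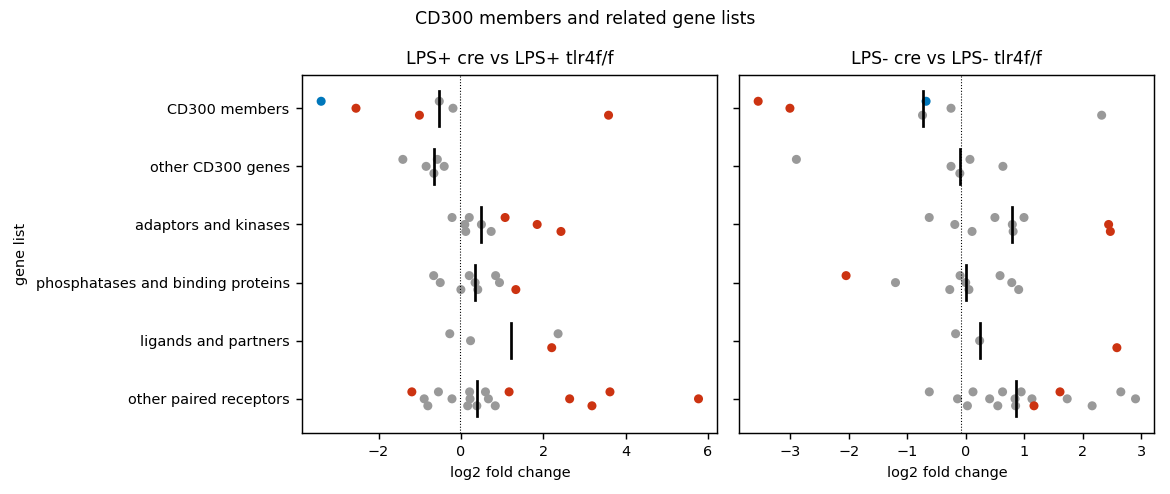
Log2 fold change of each gene (points) by list between the LPS+ groups (left) and the LPS- groups (right), tlr4f/f-lysM-cre (cre) against tlr4f/f as headed. Red points were called, grey were not, the blue point is Cd300lf (not tested), black bars are list medians (for CD300 over the 5 members tested, without Cd300lf) and the dotted line is the median of all genes. The CD300 median lies below 0 in both panels (-0.53 and -0.74) and that of adaptors and kinases above 0 (0.50 and 0.80).

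As a description, profiles were compared by the root mean square difference of log2 CPM, centred per gene, over the 12 libraries and 15792 genes. Among the members, Cd300ld and Cd300c2 were closest (0.58), followed by Cd300a and Cd300lb (0.69), and Cd300lf and Cd300e were farthest apart (3.27). The 3 genes nearest to Cd300lf were Igsf11 (0.63), Tnk2 (0.76) and Dab2 (0.76), none of them as near as the nearest of any other member. Nearest to Cd300a were Pdxk (0.36), Abcd2 (0.37) and Mical1 (0.39), and nearest to Cd300lb were Bora (0.21), Lonrf3 (0.23) and Dhcr7 (0.23). Cd300e had Pstpip2 (0.54), F830208F22Rik (0.59) and Tex12 (0.66, at most 0.877 CPM in a library). Cd300ld had Tceal8, ENSMUSG00000097582.1 and Nucks1 (each 0.24). For Cd300c2 they were 1810058I24Rik (0.10), Ate1 (0.12) and Slc35e3 (0.12).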

How the data were processed

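RNA of 12 BMDM libraries was sequenced as polyA libraries, as the paper states, while the labels name both rRNA removal and polyA selection. Reads were trimmed with Trimmomatic 0.36, aligned to mm10 with HISAT2 and counted with HTSeq, per the labels and the paper's methods. The deposited values are raw counts per transcript, with no normalization by the authors. A gene has several transcript rows that share reads, so the row with the highest total was taken for each gene. Reads carry no molecular identifiers, so a count is not a number of molecules.

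The tests were run in edgeR 4.0.16 (R 4.3.3) after filterByExpr and TMM scaling, with a robust quasi-likelihood fit of the 6 libraries compared (12 for the interaction), and Benjamini-Hochberg adjustment over all genes tested. A call required an adjusted p below 0.01 besides a change of more than 2-fold, the limits of the study, in which DESeq was used. The methods were tested on simulated data. The CD300 members, gene lists and markers were chosen with earlier results of these data known. Named genes were the 6 members, the other CD300 genes, the 2 called genes of each list with the largest change in each of the comparisons with most members called (3 comparisons, since the second place was tied), the 3 genes nearest to each member in profile, and Tlr4, Lyz2 and Il1b. Sirpb1c, on the list of paired receptors, was not analysed here, and 1 gene of the list of adaptors and kinases is not reported here. Levels across the 4 groups share 1 TMM scaling.

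Alternatives were DESeq2 1.42.0, RLE factors, a filter of 1 count only, a filter of 10 counts in each library, the replicate number as a block, the sum of transcript rows, an adjusted p below 0.05, all 12 libraries in 1 fit, each library left out in turn, and a prior count of 0.5 in place of 2 for the profiles.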

Additional observations from a re-analysis of the deposited data

Results flagged for a closer look

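The difference between tlr4f/f-lysM-cre and tlr4f/f in Cd300lb was not the same with and without LPS. The interaction was 1.97 ± 0.26 (log2, SE, n = 12 libraries; edgeR quasi-likelihood test, adjusted p = 0.00423), and its value is the same under either reading of the headings. As headed, Cd300lb was 8.03-fold lower in tlr4f/f-lysM-cre without LPS and 2.01-fold lower with LPS. With the headings exchanged, it was 1.37-fold higher without LPS and 5.39-fold higher with LPS. All 3 libraries of LPS- tlr4f/f-lysM-cre lay below every library of the other 3 groups. The adjusted p was between 0.0124 and 0.0211 when any 1 library of the LPS+ groups was left out.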

How the results depend on the processing

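Between the LPS+ groups, 2 to 3 members were called under every alternative, and Cd300lb (-1.01) fell short of 2-fold with DESeq2 or RLE factors (-0.9955 for both). Between the LPS- groups the count was 1 to 2 with 1 library left out, and Cd300e was called with DESeq2 (adjusted p = 0.00113) and with all 12 libraries in 1 fit (0.00608). In LPS+ against LPS- tlr4f/f-lysM-cre the count of 2 became 1 with the replicate block and 1 with the sum of transcript rows, where Cd300a had adjusted p of 0.0177 and 0.0103. It ran from 0 to 3 with 1 library left out, and Cd300e was called with DESeq2 (0.00124). For the interaction the count ran from 0 to 1 with 1 library left out. With the threshold at 0.05, Cd300e was called between the LPS- groups and between the tlr4f/f-lysM-cre groups. The cause of these changes was not tested. A fit with a library left out also has fewer residual degrees of freedom.

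Signs turned only in values that were not called. Cd300e between the tlr4f/f groups was 0.12 with the replicate block and ran from -0.71 to 0.29 with 1 library left out, and Cd300c2 ran from -0.12 to 0.30. The interaction of Cd300ld was -0.032 with DESeq2 and with RLE factors. With 1 library left out it ran from -0.17 to 0.37, and that of Cd300c2 from -0.052 to 0.38.

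Whether replicate numbers pair the libraries is not stated. Correlations of same-numbered deviations ran from -0.04 to 0.47 over the 4 comparisons. Between the LPS+ groups they were 0.06, 0.07 and 0.19, each highest for its own number, and between the LPS- groups 0.47, 0.34 and 0.01, where replicate 3 matched replicate 1 better, hints from the data and not from the design. Over all genes, calls between the LPS- groups numbered 2499, against 3997 with DESeq2, 4258 in the single fit, 4064 at 0.05 and 1037 to 1431 without 1 library other than LPS- tlr4f/f replicate 3. Between the tlr4f/f-lysM-cre groups they numbered 866, against 2006 with DESeq2, 1985 at 0.05 and 212 with the block. Between the LPS+ groups 3165 became 2051 in the single fit. For the interaction 157 became 658 with DESeq2, 624 at 0.05, 99 without LPS- tlr4f/f replicate 1 and 306 without LPS- tlr4f/f-lysM-cre replicate 3. Between the tlr4f/f groups 0 became 92 at 0.05, 75 in the single fit, 34 without the filter and 184 without LPS- replicate 3. With prior count 0.5, 2 of the 3 genes nearest to Cd300lf remained, Txlnb took the place of Tex12 for Cd300e, and Gm41640 (0.31) became the nearest to Cd300a.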
